A study of Mus musculus with 8 samples.

Results

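The genes described here are the transcriptional arm of the integrated stress response in mouse CD8+ T cells, together with the enzymes that make amino acids, supply one-carbon units and charge transfer RNAs. They were chosen by symbol: 40 symbols were listed, 39 of them are rows of the deposited count table of 41730 genes, and all 39 passed the filter on low counts that left 13290 genes for testing. The remaining entry, Vldlr-none, is not a gene symbol and matched no row.

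The sequenced cells were OT-I T cells, whose transgenic receptor recognises SIINFEKL, a peptide of ovalbumin. They were cultured with peptide-pulsed dendritic cells derived from bone marrow and then purified by flow sorting. Control cultures received the solvent DMSO and treated cultures received 2 uM RGX-104, a synthetic agonist of the liver X receptors (LXR), with 4 libraries in each group. In both groups the dendritic cells were LXR-/-, whereas the T cells are labelled only by the genotype OT-I. Strain, age and culture time were not stated in the labels. The comparison asks how T cell transcripts differ when the agonist is added to cultures whose dendritic cells lack its receptors.

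In the integrated stress response, kinases that sense amino acid shortage, misfolded protein, heme loss or viral RNA phosphorylate the initiation factor eIF2. General translation then falls while the transcription factor ATF4 is translated more, so the level of Atf4 messenger RNA is only part of its control. ATF4, often as a dimer with a C/EBP protein, binds response elements in genes for amino acid synthesis, amino acid transport and tRNA charging. In activated T cells these genes support growth, and serine-derived one-carbon units feed nucleotide synthesis.

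Library totals ranged from 30642316 to 37714355 counts. RGX-104 replicates 2 and 3 were the closest pair of libraries (chi-square per degree of freedom 1.36, against 2.33 to 6.77 for the other pairs within a group). The labels do not tie the samples to separate animals or cultures, so the p-values reflect the spread among these libraries, and that spread may be only technical. Levels are given as CPM, which are counts scaled to library size. The T cell transcripts Cd3e and Cd8a were abundant but themselves lower with RGX-104, at 325 and 877 CPM in controls and 295 and 809 CPM in treated cells (adjusted p = 0.00295 and 0.00273). Of the other T cell markers, Cd8b1 was also lower (466 to 428 CPM, adjusted p = 0.00264) and Lck was higher (87.8 to 93.9 CPM, adjusted p = 0.0395). Cd3d and Cd3g did not pass the test. Cd2, another T cell marker, had at most 6 counts in any library and was not tested, so that count is not read as absence. The myeloid transcripts Lyz2, Csf1r, Spi1, Tyrobp and Fcer1g had at most 13 counts in any library, while Cd74, of antigen presentation, rose from 26.5 to 33.2 CPM (adjusted p = 6.12e-06). The dendritic cell marker Itgax had 17 to 34 counts per library, with means of 0.658 CPM in controls and 0.779 CPM with RGX-104. Flt3 had 4 to 17 counts, with means of 0.262 and 0.334 CPM. Neither passed (edgeR adjusted p = 0.554 and 0.665), and Cd209a had at most 1 count. The part of these markers in the results that follow was not tested. The 10 dendritic and myeloid markers summed to 684 to 729 CPM in controls and 655 to 679.8 CPM with RGX-104, most of it Ccr7, which activated T cells also express. Ccr7 fell from 682 to 634 CPM (edgeR adjusted p = 0.0125), opposite to Cd74. Fewer cells of a type and less RNA per cell cannot be told apart in bulk libraries.

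With RGX-104, 8 of the 39 genes fell and 0 rose. The genes that fell were Asns, Cth, Pck2 and Psat1 of amino acid synthesis, the tryptophanyl-tRNA synthetase gene Wars, and the regulators Trib3, Cebpb and Eif4ebp1. Mean CPM fell by 6.45% for Psat1 and by 23.1% for Asns, the smallest and the largest of the 8 declines. Over all tested genes 4.13% were called lower and 4.82% higher (edgeR quasi-likelihood test, Benjamini-Hochberg adjusted p under 0.05). At an unadjusted p under 0.05, 13 of the 39 were lower, where 1419 of the 13290 tested genes were. At that threshold 3 of the 39 were higher (Ddit4, Atf4 and Cars), where 11.5% of all tested genes were. DESeq2 called 8 of the 39 lower and 1 higher, and limma-voom 9 lower and 2 higher.

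The median log2 change of the 39 genes was -0.040, against 0.00072 for all tested genes. A negative change was found in 27 of the 39 (69.2%), in 49.6% of all tested genes and in 62.5% of the 120 related genes described below. All 4 RGX-104 libraries lay below all 4 controls in 11 genes, where 7.45% of tested genes did so. They lay above in 1 gene, Cars, where 7.07% of tested genes did so. The plot of changes by role shows that the shift was not shared evenly, since a few genes stood well below 0 and most lay close to it.

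**Figure D1:**
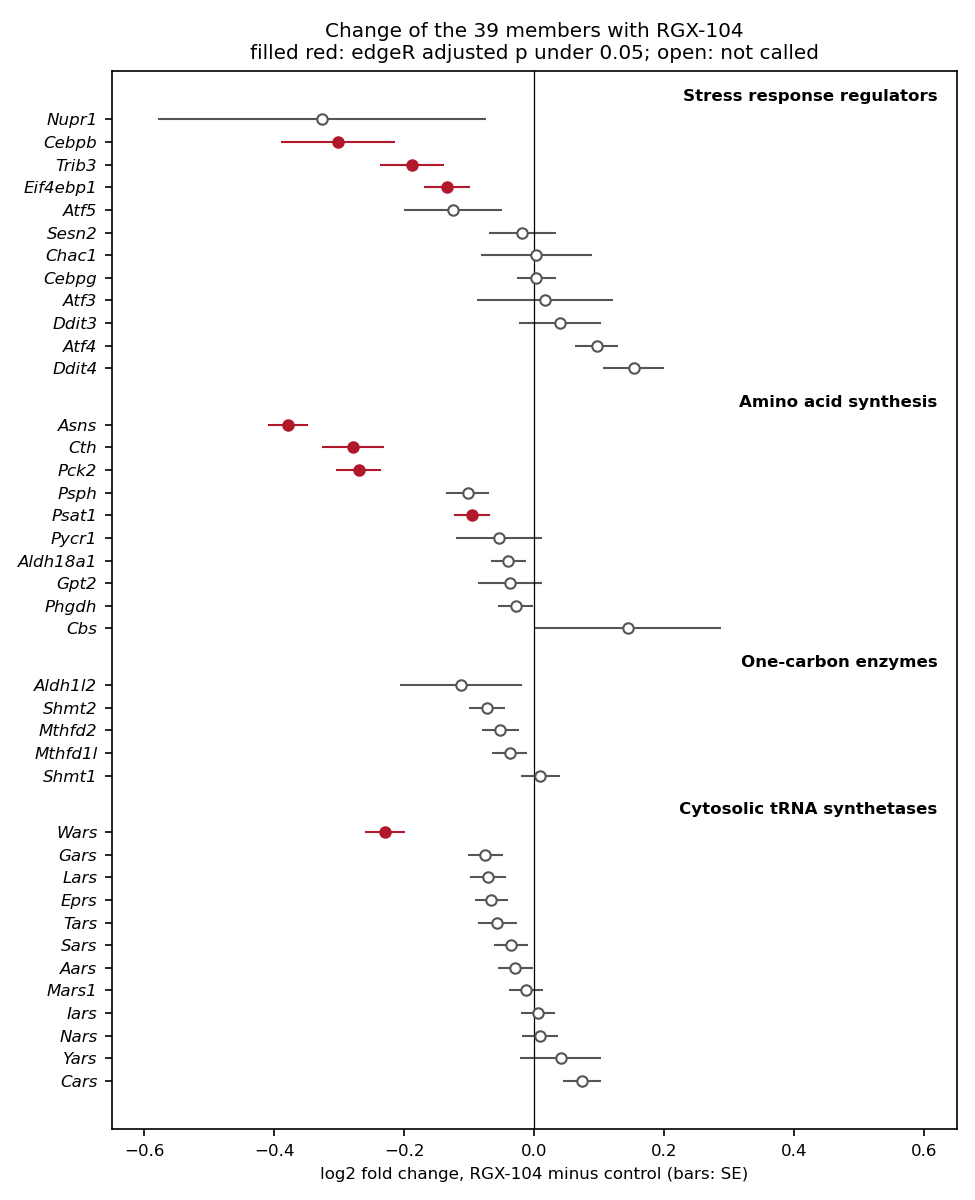
Log2 fold change of each of the 39 genes (RGX-104 minus control, x axis) with its standard error, grouped by role. The 8 filled points passed the edgeR test and all lie below 0, with Asns at -0.38, while Ddit4 and Atf4 are the highest regulators at 0.15 and 0.10.

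Among the regulators, the transcript of the master factor did not fall. Atf4, on chromosome 15 from 80255184 to 80257545 (GRCm38), was at 367, 339, 350.2 and 377 CPM in control replicates 1 to 4 and at 395, 376, 368 and 394 CPM in RGX-104 replicates 1 to 4. The group means were 359 ± 17.2 and 383 ± 13.7 CPM (SD, n = 4), and the groups overlapped. Its log2 change of 0.10 ± 0.03 (SE) did not pass (adjusted p = 0.0711), although limma-voom called it higher (adjusted p = 0.0285), as did edgeR with upper-quartile scaling (0.0352), with no filter (0.0389), without control replicate 4 (0.0123) and without RGX-104 replicate 3 (0.0499). So did edgeR without both RGX-104 replicates 2 and 3 (0.0418) and with a replicate block by column number (0.00499). No label pairs samples by number.

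Ddit4, which encodes an inhibitor of mTORC1 signalling, was the other regulator with a positive change near the threshold. It was at 267, 294, 289.9 and 268 CPM in controls and at 288, 332, 322 and 300.1 CPM with RGX-104, a log2 change of 0.15 ± 0.05 (adjusted p = 0.0659). DESeq2 called it higher (adjusted p = 0.00834), and so did edgeR with no filter (5.15e-05), without control replicate 2 (0.0318) or RGX-104 replicate 1 (0.00635). With the block by column number, edgeR also called it higher (1.30e-05). Without both RGX-104 replicates 2 and 3 its log2 change was 0.072 (adjusted p = 0.406). In both groups Ddit4 was lower in replicates 1 and 4 than in replicates 2 and 3, and Atf4 was higher in them.

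The genes of the stress-induced factors CHOP and ATF3 did not pass. Ddit3, which encodes the factor CHOP, was at 14.97, 13.7, 14.1 and 12.3 CPM in controls and at 13.5, 13.8, 15.3 and 13.9 CPM with RGX-104 (log2 change 0.04 ± 0.06, adjusted p = 0.765). It overlaps Mars1 and Mbd6, so reads in the overlap cannot be assigned without a stated strand setting. Atf3 was at 31.7, 27.4, 28.6 and 33.5 CPM in controls and at 34.7, 26.9, 27.7 and 33.5 CPM with RGX-104 (log2 change 0.02 ± 0.10, adjusted p = 0.949). Its spread within each group exceeded the difference between them, and replicates 1 and 4 were the higher pair in both groups.

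Chac1, a glutathione-degrading enzyme gene and a known ATF4 target, did not pass either. It was at 6.74, 6.10, 5.88 and 6.82 CPM in controls and at 5.96, 6.00, 6.71 and 6.94 CPM with RGX-104 (log2 change 0.0028 ± 0.085, adjusted p = 0.989). Sesn2, which encodes a leucine-sensing repressor of mTORC1, was at 20.7, 21.0, 19.2 and 19.8 CPM in controls and at 19.8, 19.2, 19.1 and 21.6 CPM with RGX-104 (log2 change -0.018 ± 0.051, adjusted p = 0.874). In both genes the RGX-104 libraries spanned much the same range as the controls, as the panels of uncalled regulators show.

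**Figure D2:**
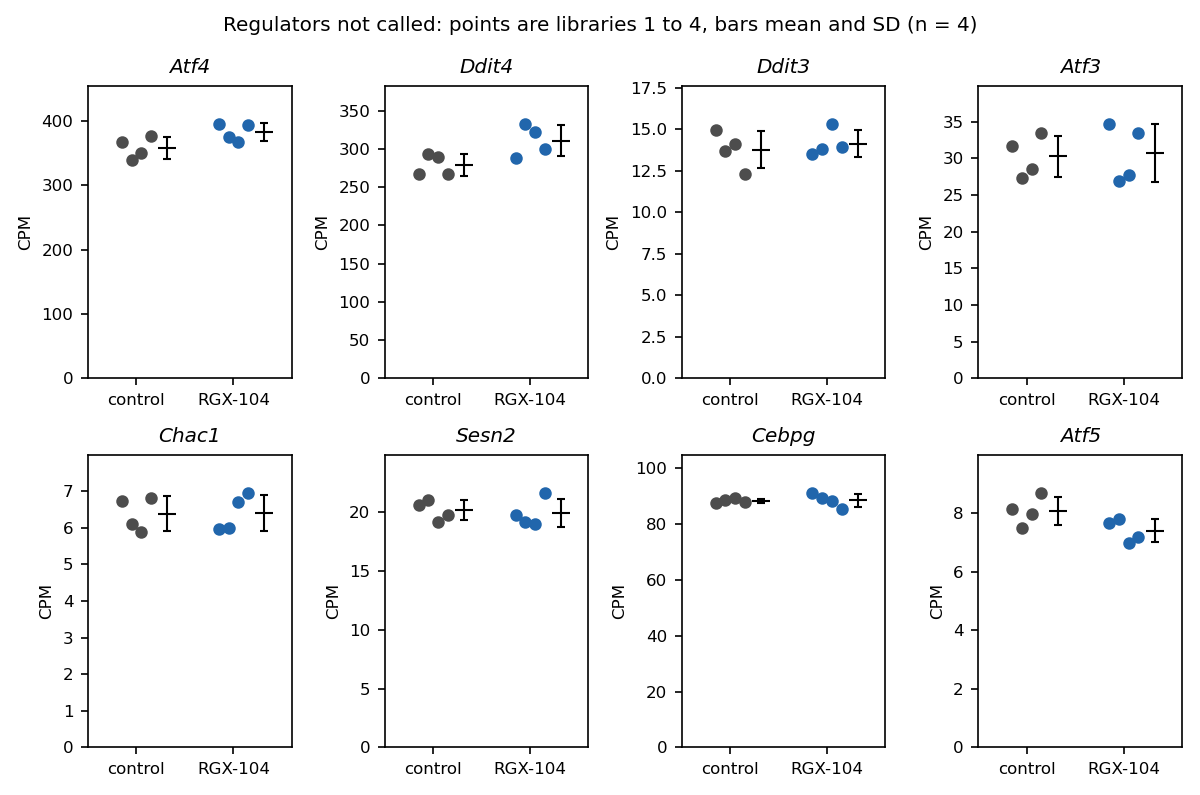
CPM (y axis, from 0) of 8 regulators that did not pass the test, with 1 point for each library in the order of its number and bars for mean and SD (n = 4). Control and RGX-104 points overlap in all 8 panels, and in Atf3 replicates 1 and 4 are the higher pair in both groups.

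Trib3, a pseudokinase gene that feeds back on ATF4 and CHOP, passed the test. It was at 21.6, 19.9, 20.2 and 20.2 CPM in controls and at 18.3, 18.7, 18.1 and 16.8 CPM with RGX-104. Every RGX-104 library lay below every control, a log2 change of -0.19 ± 0.05 (adjusted p = 0.0146). The call was lost without RGX-104 replicate 4 (adjusted p = 0.0724).

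Eif4ebp1 encodes 4E-BP1, a repressor of cap-dependent translation. It was at 81.7, 77.9, 80.8 and 82.9 CPM in controls and at 69.9, 78.8, 72.0 and 73.6 CPM with RGX-104, so that RGX-104 replicate 2 lay within the control range. Its log2 change was -0.13 ± 0.04 (adjusted p = 0.0158), and without RGX-104 replicate 1 or 3 it did not pass (adjusted p = 0.0755 and 0.0619).

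Cebpb encodes a C/EBP partner of ATF4 and is also a myeloid gene. It was at 6.05, 7.13, 7.04 and 8.01 CPM in controls and at 5.76, 5.83, 5.51 and 5.81 CPM with RGX-104, with no overlap. The log2 change of -0.30 ± 0.09 passed (adjusted p = 0.0290), but leaving out any 1 library other than control replicate 1 ended the call (adjusted p = 0.0533 to 0.125). With 1 surrogate variable the log2 change was -0.20 (adjusted p = 0.269). The part of myeloid transcripts in this result was not tested.

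Of the other regulators, Cebpg, which encodes another ATF4 partner, was at 88.3 ± 0.782 CPM in controls and 88.5 ± 2.38 CPM with RGX-104 (SD, n = 4). Atf5, a related stress factor gene that overlaps Nup62 and Il4i1b, was at 8.07 and 7.40 CPM (adjusted p = 0.347). Nupr1, a stress-inducible chromatin protein gene, was too low to judge, with 17 to 57 counts per library and a log2 change of -0.33 ± 0.25.

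Amino acid synthesis held the clearest declines, with 4 of 10 genes lower and 9 of 10 with a negative change (median log2 change -0.075). Over all tested genes 4.13% were called lower and 49.6% of changes were negative. In the list of eIF2 kinases and eIF2 subunits described below, 13 of 15 changes were negative. Asns, which encodes asparagine synthetase and lies on chromosome 6 from 7675165 to 7693209, was at 103, 105, 106 and 111 CPM in controls. With RGX-104 it was at 81.7, 81.1, 82.5 and 81.2 CPM. The 4 treated libraries lay close together and well below the lowest control, a log2 change of -0.38 ± 0.03 (adjusted p = 1.58e-09). Asns was the only one of the 39 genes that passed against a fold of 1.2, and it passed under all 21 alternatives that were run.

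Pck2 encodes the mitochondrial form of phosphoenolpyruvate carboxykinase, which can feed carbon into serine. It lies on chromosome 14 from 55540263 to 55550020 and was at 68.1, 67.5, 67.6 and 68.7 CPM in controls against 55.7, 59.9, 55.1 and 54.6 CPM with RGX-104. The groups were far apart relative to their spread, with a log2 change of -0.27 ± 0.03 (adjusted p = 3.92e-06).

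Cth encodes cystathionine gamma-lyase, which makes cysteine from cystathionine. It lies on chromosome 3 from 157894248 to 157925081 and was at 26.5, 25.1, 25.9 and 27.2 CPM in controls against 23.5, 21.2, 20.2 and 21.5 CPM with RGX-104. This was a log2 change of -0.28 ± 0.05 (adjusted p = 2.56e-04), without overlap. Cbs, the preceding enzyme of the same route, had only 51 to 76 counts per library and a log2 change of 0.14 ± 0.14 (adjusted p = 0.603).

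The serine route from 3-phosphoglycerate runs through Phgdh, Psat1 and Psph, and 1 of the 3 genes passed. Phgdh, the first enzyme, was at 279, 267, 279.8 and 279 CPM in controls and at 277, 267, 269 and 270.4 CPM with RGX-104 (log2 change -0.029 ± 0.027, adjusted p = 0.575). Psat1, the aminotransferase that follows, was at 512, 487, 504 and 533 CPM in controls and at 480.2, 471, 469 and 485 CPM with RGX-104. All treated libraries were below all controls, but the nearest pair, at 485 and 487 CPM, almost met. The log2 change of -0.10 ± 0.03 passed (adjusted p = 0.0312).

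The Psat1 call held without control replicate 1 or 2 (edgeR adjusted p = 0.0471 and 0.0120) and in no other fit without 1 library. Leaving out control replicate 3 or 4, or any 1 of the RGX-104 replicates, gave adjusted p between 0.0524 and 0.105. Upper-quartile scaling also ended the call, as did 1 surrogate variable (log2 change -0.072, adjusted p = 0.149). Psph, the phosphatase of the last step, was at 103 ± 1.66 CPM in controls and 96.4 ± 4.80 CPM with RGX-104 (SD, n = 4). All its treated libraries were below all controls, yet its log2 change of -0.10 ± 0.03 did not pass (adjusted p = 0.0531), while limma-voom called it lower (adjusted p = 0.0256), as did edgeR with no filter (0.0202) and without RGX-104 replicate 1 (0.0445) or 4 (0.0319). Without both RGX-104 replicates 2 and 3 its log2 change was -0.044. Psph overlaps Cct6a.

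Proline and alanine genes did not pass. Aldh18a1, which commits glutamate to proline, was at 225, 222, 217 and 229 CPM in controls and at 214, 219, 218 and 218 CPM with RGX-104, a log2 change of -0.040 ± 0.027 (adjusted p = 0.403). Pycr1, which completes proline synthesis in mitochondria, was at 12.6 and 12.1 CPM (adjusted p = 0.675). Gpt2, the mitochondrial alanine aminotransferase gene, was at 23.1 and 22.6 CPM (adjusted p = 0.701).

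**Figure D3:**
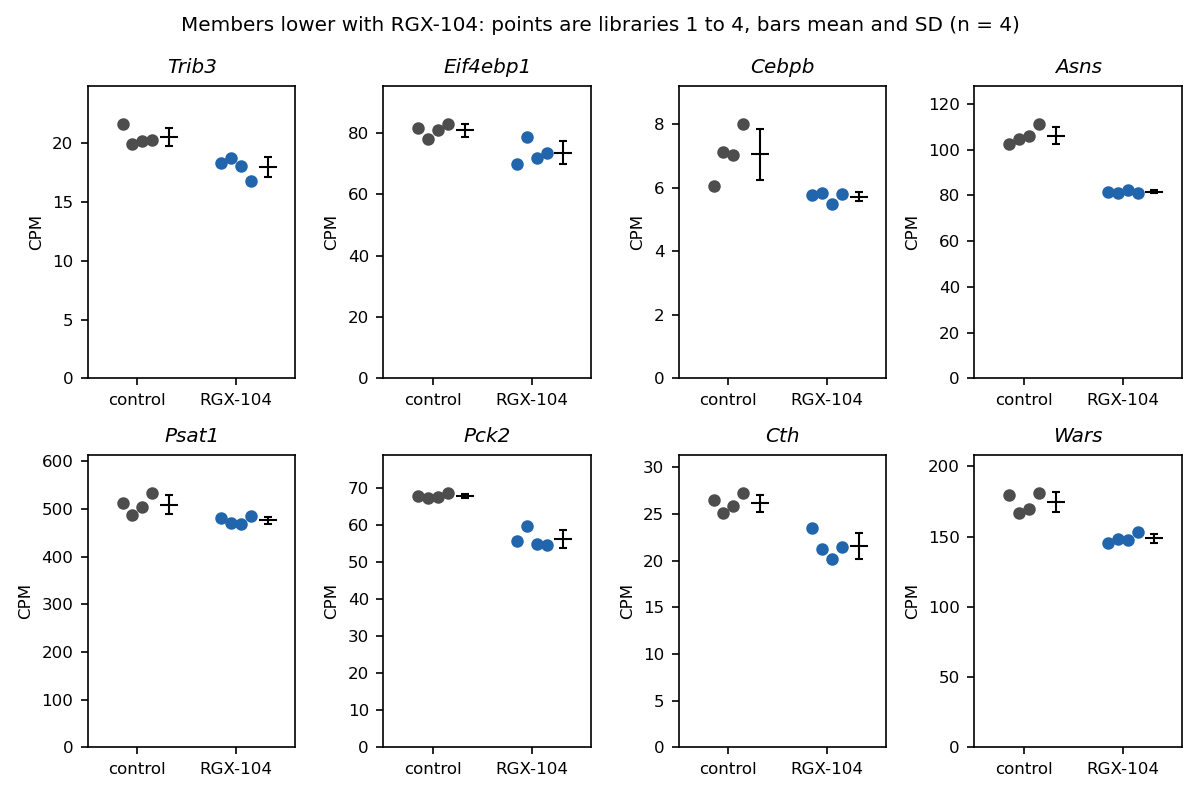
CPM (y axis, from 0) of the 8 genes that passed the test, with 1 point for each library and bars for mean and SD (n = 4). The groups do not overlap in 7 panels, and in Eif4ebp1 the second RGX-104 library reaches 78.8 CPM, within the control range.

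One-carbon enzymes had 0 of 5 genes called by edgeR, DESeq2 or limma-voom. At an unadjusted p under 0.05, 1, Shmt2, was lower and 0 were higher, where 1419 and 1526 of all 13290 tested genes were. Shmt2, which splits serine in mitochondria to release a one-carbon unit, was at 611, 573, 581 and 609 CPM in controls and at 573, 551, 559 and 575 CPM with RGX-104. Shmt2 overlaps Ndufa4l2. The groups overlapped slightly, and the log2 change was -0.073 ± 0.028 (adjusted p = 0.103). Mthfd2, the next mitochondrial folate enzyme, was at 338, 323, 326 and 348 CPM in controls and at 327, 324, 316 and 321 CPM with RGX-104 (log2 change -0.053 ± 0.028, adjusted p = 0.280). Mthfd1l, which releases formate, was at 260.0 and 253 CPM, and Aldh1l2, which oxidises formyl-folate, at 6.01 and 5.57 CPM. Shmt1, the cytosolic counterpart of Shmt2, was at 165 and 166 CPM (log2 change 0.0089 ± 0.030).

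Of the 12 cytosolic tRNA synthetase genes, 1 was lower and 0 were higher, where 4.13% of all tested genes were called lower and 4.82% higher. DESeq2 called 1 lower and 0 higher, and limma-voom 1 lower and 1, Cars, higher. At an unadjusted p under 0.05, 4 were lower and 1, Cars, was higher, where 1419 and 1526 of all 13290 tested genes were. Wars, on chromosome 12 from 108860030 to 108894175, encodes tryptophanyl-tRNA synthetase and is also known as an interferon gamma-inducible gene. It was at 179.7, 167, 169.7 and 181 CPM in controls and at 146, 148, 148 and 153 CPM with RGX-104. All treated libraries lay below all controls, with a log2 change of -0.23 ± 0.03 (adjusted p = 8.97e-06). Wars overlaps Wdr25.

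The other 11 synthetases stayed within a narrow band, from -0.075 for Gars to 0.073 for Cars on the log2 scale, with a median of -0.029. Gars, for glycine, was at 496, 490.4, 504 and 529 CPM in controls and at 482, 477, 478 and 479 CPM with RGX-104. Its treated libraries were all below the controls, but the change did not pass (adjusted p = 0.0853). The same held for Lars, for leucine, and Eprs, for glutamate and proline (log2 change -0.071 ± 0.027 and -0.066 ± 0.026, adjusted p = 0.110 and 0.116). Cars, for cysteine, went the other way, from 151 to 161 CPM in controls and 162 to 166 CPM with RGX-104 (log2 change 0.073 ± 0.029, adjusted p = 0.122), and only limma-voom called it higher (adjusted p = 0.0441).

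Aars, for alanine, was at 333, 321, 317 and 329 CPM in controls and at 317, 316, 317 and 324 CPM with RGX-104, with overlapping groups and a gene overlap with Ddx19b (log2 change -0.029 ± 0.027, adjusted p = 0.554). Tars, Sars and Mars1, for threonine, serine and methionine, changed by -0.057, -0.036 and -0.013 on the log2 scale, and Nars and Iars, for asparagine and isoleucine, by 0.0086 and 0.0052. None of these 5 passed with edgeR, DESeq2 or limma-voom. Yars, for tyrosine, had 391 to 479 counts per library (log2 change 0.040 ± 0.062), and since a second row of the table holds a scaffold copy of it, that count is not read as low expression.

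Levels per length, in CPM per kilobase of merged GENCODE exons, place these genes on a common scale. In controls Shmt2 stood at 191, Gars at 162, Ddit4 at 159 and Atf4 at 152, followed by Psat1 at 119.7 and Phgdh at 111. Asns stood at 38.8, Trib3 at 9.64, Cth at 9.38, Pck2 at 8.71 and Chac1 at 3.90. The declines therefore appeared in genes of very different level, and Ddit4 and Atf4, which did not decline, were among the 4 highest.

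Ratios of counts within a library do not depend on how libraries are scaled. For every 100 Atf4 counts there were 27.9, 30.9, 30.3 and 29.5 Asns counts in controls and 20.7, 21.6, 22.4 and 20.6 with RGX-104. Trib3 counts per 100 Atf4 counts were 5.36 to 5.88 in controls and 4.26 to 4.98 with RGX-104, also without overlap. Chac1 counts per 100 Atf4 counts were 1.68 to 1.83 in controls and 1.51 to 1.83 with RGX-104, and overlapped. Mean Atf4 was 359 CPM in controls and 383 CPM with RGX-104, and that difference enters these ratios. Per 100 counts of the 11 synthetase genes other than Wars there were 2.93 ± 0.0723 Asns counts in controls and 2.30 ± 0.0272 with RGX-104 (SD, n = 4). All of these ratios are description, without a test.

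Wars and Pck2 were set against the synthetases in the same way. Per 100 counts of the other 11 synthetase genes there were 4.80 ± 0.130 Wars counts in controls and 4.19 ± 0.0653 with RGX-104 (SD, n = 4). For Pck2 the ratio was 1.87 ± 0.0258 in controls and 1.59 ± 0.0704 with RGX-104. Psat1 counts per 100 Phgdh counts were 180.2 to 191 in controls and 174 to 179.5 with RGX-104. In these 3 ratios the groups did not overlap, and they are given as description, without a test.

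**Figure D4:**
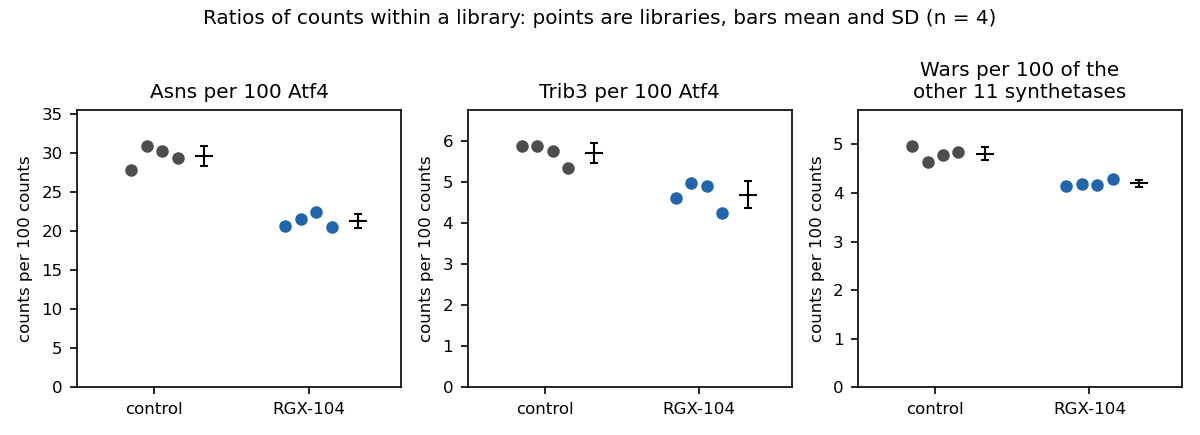
Counts of 1 gene per 100 counts of another gene or group in the same library (y axes, from 0), with 1 point for each library and bars for mean and SD (n = 4). Asns per 100 Atf4 counts lies between 27.9 and 30.9 in controls and between 20.6 and 22.4 with RGX-104.

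Promoters were searched for the C/EBP-ATF response element, the sequence that ATF4 dimers are known to bind. The motif TGATGNAAN was sought on both strands of windows from 250 bases before to 50 after each RefSeq start site (GRCm38.p6). Windows were on hand for 32 of the 39 genes, and 12 of these genes (37.5%) held it, against 2.86% of the 10359 tested genes with a window and 3.95% of all 32851 windows. The genes were chosen by function and many are known ATF4 targets, so this share describes the list and is no finding of the treatment. Of the 5 called genes with a window, Asns, Pck2 and Trib3 held the motif and Psat1 and Cebpb did not. A match is a description of the letters in the window, not evidence of a bound site.

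The Asns promoter is shown because Asns changed most. The stretch at chr6:7693207-7693309 (minus strand of GRCm38.p6, printed 5′ to 3′ along the gene) runs from base -100 to base 3 of the start site. Capitals mark the match to the C/EBP-ATF motif at -23 to -15, in its exact form TGATGAAAC, and the motif GTTACA 11 bases after it. These are the letters of the nutrient-sensing response elements known from this gene. TGATGAAAC was present in 0.247% of all windows on either strand, and GTTACA, a short motif that does not overlap it here, in 8.25%.
Asns: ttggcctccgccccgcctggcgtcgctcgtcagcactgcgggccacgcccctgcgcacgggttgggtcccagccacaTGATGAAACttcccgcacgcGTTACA

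The elements of Pck2 and Trib3, which fell, are set beside those of Chac1, Atf3 and Gars, which did not pass, so that the letters can be compared. Each is given along its gene with 10 bases on either side, from the same RefSeq build, with the match in capitals. In all 5 the motif lies on the strand opposite to the gene, so the capitals are its reverse complement. The positions are chr14:55540152-55540180 for Pck2, chr2:152344029-152344057 for Trib3, chr2:119351038-119351066 for Chac1, chr1:191183426-191183454 for Atf3 and chr6:55037960-55037988 for Gars. The match in Trib3 lies just past the start site, at 14 to 22, and the others lie before it.
Pck2: agccttcaaaGTTACATCAgtatcttaca
Trib3: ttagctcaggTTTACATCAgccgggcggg
Chac1: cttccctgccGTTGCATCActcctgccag
Atf3: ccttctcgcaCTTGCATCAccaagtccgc
Gars: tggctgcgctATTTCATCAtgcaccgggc

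The exact form TGATGCAAT was present in 4 of the 32 genes, none of which was called, and in 0.192% of all windows. Read on the motif's strand, Pck2 and Trib3 held TGATGTAA, Chac1 and Atf3 held TGATGCAA, and Asns, which fell, and Gars, which did not pass, both held TGATGAAA. Across the 12 genes with the motif, log2 changes ran from -0.38 for Asns to 0.040 for Yars. The motif was in the window of 3 of the 5 called genes and 9 of the 27 uncalled genes, so it occurred in both.

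Outside these 39 genes, 9 lists of related genes covered 126 symbols, of which 125 were in the table and 120 were tested. Of the 120, 12 were lower and 1 higher, where 4.13% of all tested genes were called lower and 4.82% higher. At an unadjusted p under 0.05, 28 of the 120 were lower and 10 higher, where 1419 and 1526 of all 13290 tested genes were. The same shares stand beside the counts of each list that follows. Of 10 other known ATF4 targets, 4 fell and 0 rose. DESeq2 and limma-voom each called 4 lower and 0 higher. At an unadjusted p under 0.05, 5 were lower and 1, Vegfa, was higher. Stc2, which encodes a secreted glycoprotein, fell by 0.74 ± 0.16 on the log2 scale (SE, adjusted p = 0.00238), with a mean of 2.69 ± 0.201 CPM in controls and 1.61 ± 0.450 CPM in treated cells (SD, n = 4). Jdp2, an AP-1 repressor gene, fell from 6.40 ± 0.345 to 4.63 ± 0.475 CPM (adjusted p = 0.00111), and the lipoprotein receptor gene Vldlr from 9.08 ± 1.07 to 6.69 ± 0.516 CPM (adjusted p = 0.00127). The fourth was Xpot, the gene of a tRNA export receptor, with a log2 change of -0.096 ± 0.029 (SE, adjusted p = 0.0344). In each of the 4 all treated libraries were below all controls.

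Amino acid transporters named as ATF4 targets were lower in 2 and higher in 0 of 10. Slc7a3, a cationic amino acid transporter gene, fell from 24.4 ± 1.12 to 17.9 ± 0.796 CPM (adjusted p = 3.26e-07) and the glycine transporter gene Slc6a9 from 16.5 ± 0.948 to 13.0 ± 1.097 CPM (adjusted p = 4.05e-04). DESeq2 called 2 of the list lower and 0 higher, and limma-voom 2 lower and 2 higher. At an unadjusted p under 0.05, 4 were lower and 2, Slc1a4 and Slc1a5, were higher. By edgeR their log2 changes were 0.12 ± 0.04 (adjusted p = 0.0554) and 0.097 ± 0.034 (adjusted p = 0.0795). The list's median log2 change was -0.0039, with 5 of 10 changes negative. Slc7a11, of the cystine exchanger, had a log2 change of -0.71 ± 0.23 at about 1 CPM and did not pass (adjusted p = 0.0510).

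Among eIF2 kinases, eIF2 and eIF2B subunits and eIF2alpha phosphatases, 2 of 15 were lower by edgeR and DESeq2, 3 by limma-voom and 4 at an unadjusted p under 0.05, and 0 were higher by any of these. Eif2s3x, an eIF2 subunit gene, changed by -0.14 ± 0.04 and Eif2ak2, the gene of the kinase that senses double-stranded RNA, by -0.11 ± 0.03 (log2, SE, adjusted p = 0.0134 and 0.0279). Eif2s3x lost its call without RGX-104 replicate 1 (adjusted p = 0.0567), without both RGX-104 replicates 2 and 3 (0.0529) and with 1 surrogate variable, where its log2 change was -0.090 (0.133). Of the 8 fits that leave out 1 library, 2 called Eif2ak2 lower, those without control replicate 1 or 4. Folate and purine enzymes had Mtr and Ppat lower and Amt, of the glycine cleavage system, higher, from 4.30 ± 0.603 to 5.63 ± 0.481 CPM (adjusted p = 0.0159), among 14 tested. DESeq2 called 4 of this list lower and limma-voom 3, and each called 1 higher. At an unadjusted p under 0.05, 5 were lower and 2 higher. Amt did not pass without control replicate 4, without RGX-104 replicate 1 or 2, or with 1 surrogate variable, where its log2 change was 0.24 and not 0.39.

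Mtr, the methionine synthase gene, changed by -0.11 ± 0.03 and Ppat, of purine synthesis, by -0.10 ± 0.03 (log2, SE, adjusted p = 0.0349 and 0.0431). Other cytosolic synthetases and their scaffold proteins had 1 of 10 lower, Kars (-0.081 ± 0.025, adjusted p = 0.0425). Of these, DESeq2 called 1 lower and limma-voom 2, with 3 lower and 0 higher at an unadjusted p under 0.05. Other amino acid enzymes had 1 of 15 lower, the aspartate aminotransferase gene Got1 (-0.12 ± 0.03, adjusted p = 0.0181). DESeq2 and limma-voom each called 1 of them lower, with 2 lower and 2 higher at an unadjusted p under 0.05. With 1 surrogate variable the log2 change of Ppat was -0.060 (adjusted p = 0.281). Without 1 library, Mtr lost its call in 4 of 8 cases, Ppat in 7, Kars in 7 and Got1 in 3. Mat2a, Vars and Prodh had scaffold copies and at most 4 counts in any library, so they were not assessed.

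Mitochondrial tRNA synthetases had 0 of 17 genes called by edgeR, DESeq2 or limma-voom, with 1 lower and 1 higher at an unadjusted p under 0.05. Genes of amino acid sensing by mTORC1 had 0 of 17 called by edgeR or DESeq2 and 1 higher by limma-voom, with 1 lower and 1 higher at an unadjusted p under 0.05. Chaperones and folding enzymes of the endoplasmic reticulum, which mark another branch of stress signalling, had 0 of 12 called by edgeR and 1 higher by DESeq2 and by limma-voom, with 3 lower and 1 higher at an unadjusted p under 0.05.

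**Figure D5:**
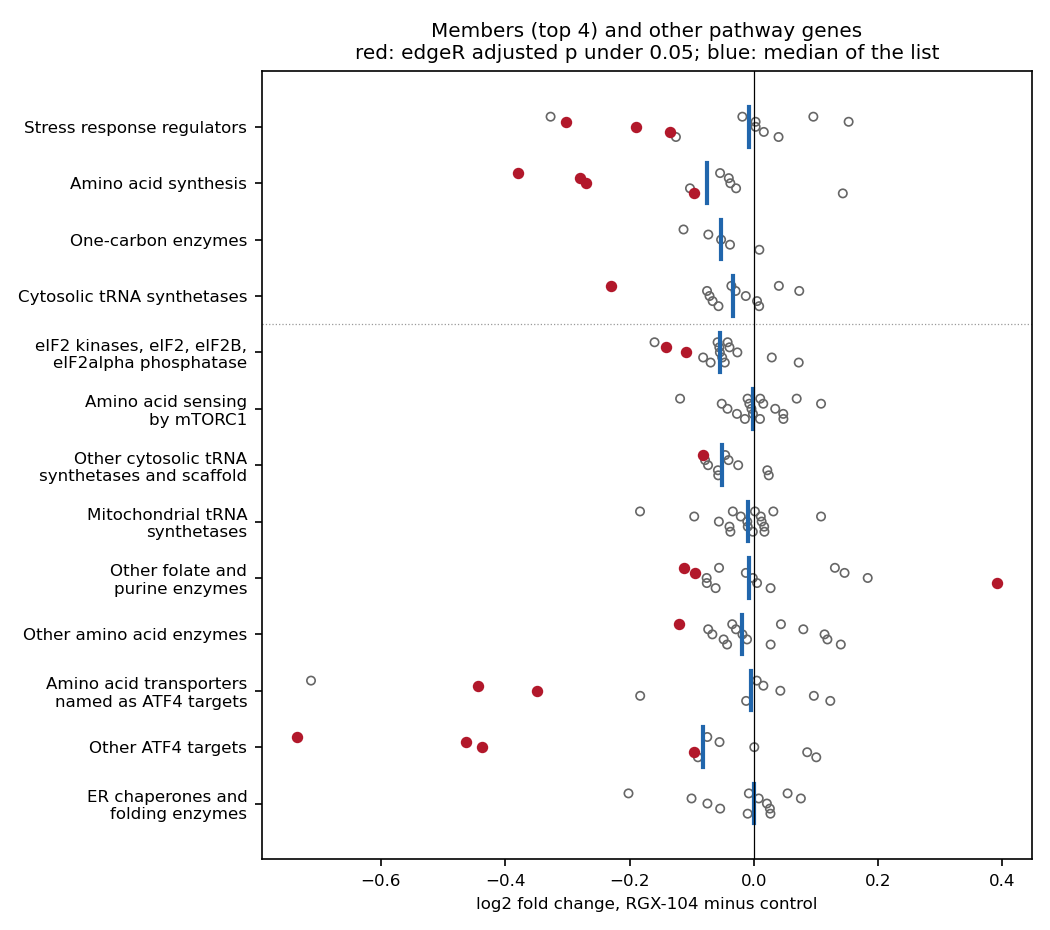
Log2 fold changes (x axis) of the 4 groups of genes described here, above the dotted line, and of 9 related lists below it, with the median of each list in blue. The points furthest left are Stc2 at -0.74 among the other ATF4 targets and Slc7a11 at -0.71 among the transporters, of which only Stc2 passed the test.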

How the data were processed

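Raw integer counts for each gene, not normalized, were deposited by the authors in 1 table. Per the submitters' processing notes, cutadapt 2.10, STAR 2.7.5, R 4.1.0, DESeq2 1.4 and build GRCm38 were used. No source used here names the counting step or its strandedness. Control columns matched numbered samples, and RGX-104 columns showed only their group, so those replicates are numbered by column.

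Genes were filtered with filterByExpr (minimum count 10, minimum total 15) and tested over the whole table with edgeR 4.0.16 (R 4.3.3), with trimmed mean of M values (TMM) scaling, robust quasi-likelihood fitting and treatment as the only term. Adjusted p under 0.05, over all 13290 tested genes, counted as called. CPM use TMM-scaled library sizes, and SE derive from the F statistic. DESeq2 1.42.0, limma-voom (limma 3.58.1), sva 3.50.0, other scalings, filters and thresholds, and leaving out libraries were alternatives. The test was run on simulated counts, drawn independently for each library with the dispersion of these data. Structure shared between same-numbered libraries was not part of that simulation. Genes and lists were chosen with earlier results of these data known. Per-library values cover each called gene and a fixed set, with up to 3 called genes named from each related list. Ddit4, Psph, Cars, Slc7a11, Slc1a4, Slc1a5, Vegfa and Xpot were singled out after their values were seen.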

Additional observations from a re-analysis of the deposited data

Results flagged for a closer look

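Each of the 39 genes was checked in both groups for a library standing far from its 3 partners. This held in 2 of 78 cases, fewer than the 3.9 that chance gives at about 1 in 20. For Phgdh it was control replicate 2, with 267 CPM where the other controls had 279 to 279.8 CPM. For Aldh18a1 it was RGX-104 replicate 1, with 214 CPM where its partners had 218 to 219 CPM. Neither gene was called in any alternative that was run.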

How the results depend on the processing

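Asns passed in all 21 alternatives and Pck2, Cth and Wars in 20 each, all but the test against a fold of 1.2. The count of 8 genes lower became 5 with 1 surrogate variable, 4 at adjusted p under 0.01, 1 against a fold of 1.2, and 5 to 8 without 1 library, with 5 without RGX-104 replicate 3, and was 6 with RGX-104 replicates 2 and 3 summed or both left out. The count of 0 genes higher became 1 with DESeq2, with upper-quartile scaling and without both RGX-104 replicates 2 and 3, 2 with limma-voom and with no filter, and 0 to 1 without 1 library. Among related genes, the count of 12 lower became 5 with 1 surrogate variable and at adjusted p under 0.01, 1 against a fold of 1.2, 6 with RGX-104 replicates 2 and 3 summed or both left out, and 7 to 15 without 1 library, with 7 without RGX-104 replicate 1, 2 or 3. The count of 1 higher became 2 with DESeq2, no filter, thinning to the smallest library and without both RGX-104 replicates 2 and 3. It became 5 with limma-voom and a filter at 1 CPM, 6 with upper-quartile scaling, 0 with 1 surrogate variable, at adjusted p under 0.01 and against a fold of 1.2, and 0 to 4 without 1 library. Calls over the tested genes moved too, from 549 lower and 640 higher. They became 365 and 425 with 1 surrogate variable, 280 and 344 at adjusted p under 0.01, and 45 and 65 against a fold of 1.2. DESeq2 called 507 and 530, limma-voom 632 and 702, and upper-quartile scaling gave 438 and 752. With RGX-104 replicates 2 and 3 summed they were 406 and 476, and with both left out 327 and 368. Without 1 library they ran from 377 to 620 lower and from 459 to 713 higher. Stricter thresholds leave fewer calls by construction, and the cause of the other differences was not tested. Summing, leaving out both and thinning were chosen after the data were seen.

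Signs of log2 changes near 0 differed for genes that were called in neither fit. They were -0.019 for Ddit3, -0.0086 for Cebpg and -0.0035 for Yars with 1 surrogate variable, -0.0033 for Cebpg with limma-voom, and -0.0038 for Chac1, -0.0037 for Cebpg and -0.0014 for Iars with no filter. Without both RGX-104 replicates 2 and 3 they were -0.0040 for Ddit3, 0.039 for Sesn2 and -0.0020 for Cebpg. Without 1 library they ran from -0.047 to 0.076 for Atf3, -0.011 to 0.082 for Ddit3, -0.037 to 0.037 for Chac1, -0.060 to 0.0026 for Sesn2, -0.011 to 0.021 for Cebpg, -0.089 to 0.0067 for Pycr1, -0.0096 to 0.027 for Shmt1, -0.0031 to 0.032 for Nars and -0.0043 to 0.018 for Iars.

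With a replicate block by column number, edgeR called 11 of the 39 genes lower and 2 higher, Atf4 and Ddit4 (adjusted p = 0.00499 and 1.30e-05). Among related genes 23 were lower and 8 higher. The block raised the calls over all tested genes too, to 906 lower and 1109 higher, from 549 and 640 without it. No label says that a number pairs samples. Deviations of same-numbered columns correlated at 0.043 to 0.157, and 7 of 8 columns correlated best with their own number, a hint from the data and not from the design.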
